A study of Mus musculus with 8 samples.

Results

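The genes described here are 7 factors that take cohesin off chromosomes or make it hold sister chromatids together: Wapl, Pds5a, Pds5b, Esco1, Esco2, Hdac8 and Cdca5. They were taken by gene symbol from a table of 16940 genes, and all 7 were listed once and passed the filter on low values (a mean of at least 10 normalized reads). The values are from TT-seq, which labels RNA made during a short pulse, here 15 min with 400 µM 4-thiouridine, so they measure newly made RNA and not protein. The cells were E14 mouse embryonic stem cells whose CTCF, the DNA-binding protein that halts cohesin at loop anchors, carries an auxin-inducible degron (AID). The auxin IAA leads to destruction of the tagged protein. All 4 groups carry the AID allele. A line with a control overexpression construct gave 2 groups, untreated and kept in IAA for 12 h. The other 2 groups, also kept in IAA for 12 h, overexpressed wild-type CTCF or mutated CTCF. Each group had 2 libraries, the labels do not say whether a line was 1 clone or which CTCF residues were mutated, and untreated libraries of the overexpressing lines are not analysed here. The level of CTCF itself is not analysed here.

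Cohesin is a ring of SMC1A, SMC3, RAD21 and a STAG subunit that extrudes DNA loops and holds sister chromatids together from S phase to anaphase. WAPL opens the ring with help from PDS5A or PDS5B, which lets cohesin come off and keeps loops short. ESCO1 and ESCO2 acetylate SMC3, ESCO2 mainly during DNA replication, and the acetylated ring recruits sororin (the product of Cdca5), which holds WAPL off. HDAC8 removes the acetyl group so that SMC3 can be used again.

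Reads counted to the listed genes summed to 15671114 to 21561141 per library, recovered from the deposited values as described with the processing. Reads outside these genes are not in that sum. Behind the values of the 7 genes stood 511 to 12531 recovered reads per library. Replicates differed by more than counting error, with a chi-square of 1.30 to 3.07 per degree of freedom, the highest in the wild-type CTCF pair, and were counted as 2 samples. The labels do not say whether the 2 libraries of a group came from separate cultures, so the p-values measure only the spread between these libraries. Of the cell type markers, all 7 pluripotency markers of a list had values, with sums of 49166 to 49902 normalized reads untreated, 51881 to 53237 in the control with IAA, 56497 to 59811 with wild-type and 56252 to 58725 with mutated CTCF. Of 6 primitive endoderm markers 4 had values, which summed to 195 to 228 untreated, 269 to 331 in the control with IAA, 233 to 262 with wild-type and 256 to 259 with mutated CTCF. Of 4 trophoblast markers Tfap2c alone had values, 796 to 879 with wild-type CTCF and 546 to 625 in the other groups. Of 4 primed or early neural markers 2 had values, with sums of 74.997 to 84.4 untreated, 59.4 to 67.9 in the control with IAA, 82.4 to 87.4 with wild-type and 41.8 to 50.4 with mutated CTCF. The part of these differences in the results below was not tested. None of the 4 feeder fibroblast markers had a value in the table used here.

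Of the 7 genes, 5 matched an upstream sequence in the RefSeq promoter table (GRCm38.p6): Wapl, Pds5a, Pds5b, Hdac8 and Cdca5. The 250 bases before each RefSeq start were searched on both strands. The sequences of the PDS5 pair are shown up to the GENCODE gene start, because one of these paralogs changed with IAA and the other did not pass the test (values below). Capitals mark a match to a 12-letter pattern from the CTCF core motif in Pds5b and matches to TTGGCGC, letters of the E2F motif, on both strands in Pds5a, where they overlap.
Pds5b, chr5:150673577-150673738, plus strand: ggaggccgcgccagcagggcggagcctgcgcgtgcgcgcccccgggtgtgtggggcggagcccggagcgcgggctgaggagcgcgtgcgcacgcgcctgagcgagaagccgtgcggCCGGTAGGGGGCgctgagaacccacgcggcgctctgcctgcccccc
Pds5a, chr5:65698274-65698486, minus strand: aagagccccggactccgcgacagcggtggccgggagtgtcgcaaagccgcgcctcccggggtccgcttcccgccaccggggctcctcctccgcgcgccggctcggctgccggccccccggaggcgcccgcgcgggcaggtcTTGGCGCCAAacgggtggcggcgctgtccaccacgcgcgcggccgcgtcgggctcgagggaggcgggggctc

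The CTCF-type letters in Pds5b lie 134 to 123 bases before its RefSeq start. That pattern was chosen after the sequence had been read, and 1.17% of the 32851 promoter windows of the same length hold it. Another CTCF-type pattern is in 2.07% of all windows and matched 0 of the 5 member windows. TTGGCGC is in 1.97% of all windows and in those of Pds5a and Pds5b, in the latter 42 to 36 bases before the start. The windows of Pds5a and Pds5b hold 80.4% and 75.6% GC, against a median of 52.4% over all promoters. The shares over all windows are therefore not from windows alike in GC. The 5-letter CCAAT is in 33.9% of all windows and in those of Pds5b, Wapl and Hdac8, and TTTGAA, letters of the cell-cycle homology region, is in 16.0% and in those of Pds5b, Cdca5 and Hdac8. These matches are letters in a window, and no binding was measured here.

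The first comparison sets the control line after 12 h of IAA against the same line untreated and asks how the genes respond to IAA in cells with degradable CTCF. Esco2 fell and Pds5b rose. The other 5 did not pass an adjusted p of 0.05 in the limma fit used throughout (Benjamini-Hochberg over 15818 genes), with fold changes on the log2(value + 1) scale. The 2 of 7 calls stand against 37.7% of all tested genes called in this comparison. The median log2 fold change of the 7 genes was 0.029, and over all tested genes it was -0.0017.

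Esco2, the acetyltransferase that acts at replication forks, had 1876 and 1896.5 normalized reads in the untreated control libraries and 1378 and 1268 in those with IAA. Both IAA libraries were lower than both untreated ones. The mean fell by 29.8%, a log2 fold change of -0.51 (SE 0.049, 95% interval -0.61 to -0.41, adjusted p = 2.9e-11). An absolute log2 fold change at least that large was seen at 16.9% of all tested genes. In bulk RNA, fewer cells in S phase and less Esco2 RNA made per cell cannot be told apart. In a list of S phase genes, 5 of 14 tested genes fell with IAA and the other 9 did not pass (list median -0.022), beside 37.7% of all tested genes called, and the part of the cell cycle in the Esco2 change was not tested.

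Pds5b, one of the pair of PDS5 proteins that bind WAPL or sororin on the ring, had 5823 and 6089 normalized reads without IAA and 6965 and 6881 with it. The groups did not overlap. Its mean was 16.2% higher with IAA, a log2 fold change of 0.22 (SE 0.034, 95% interval 0.15 to 0.29, adjusted p = 1.4e-06). Its paralog Pds5a stood at 9947 and 10326 without IAA and 10238 and 10289 with it, so both IAA libraries lay inside the range of the untreated ones. The log2 fold change of Pds5a was 0.018, with a 95% interval of -0.043 to 0.079. An absolute value at least as large was seen at 94.5% of all tested genes, and for Pds5b at 45.8%.

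Wapl, the release factor itself, had 10309 and 10802 normalized reads without IAA and 10567 and 10798 with it. Its groups overlapped too, and its log2 fold change of 0.018 had a 95% interval of -0.045 to 0.080. For Wapl, Pds5a and Hdac8 the small positive values turned negative with equal library totals (-0.034, -0.033 and -0.023), so no direction is given for them.

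Esco1, the acetyltransferase that acts throughout the cell cycle, had 2124 and 2244 normalized reads without IAA and 2288 and 2240.4 with IAA, and the groups overlapped. Its log2 fold change was 0.053 (95% interval -0.037 to 0.14, adjusted p = 0.38), and 0.0011 with equal totals. Hdac8, the SMC3 deacetylase, had 990.5 and 996.5 without IAA and 949 and 1082 with it, where the 2 IAA libraries lay on either side of the untreated pair (0.029, 95% interval -0.096 to 0.15). Cdca5, which encodes sororin, had 556 and 580.2 without IAA and 609 and 634 with it. The Cdca5 groups did not overlap, but its log2 fold change of 0.13 (SE 0.073, 95% interval -0.020 to 0.28) had an adjusted p of 0.17, and the value was 0.077 with equal totals.

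**Figure D1:**
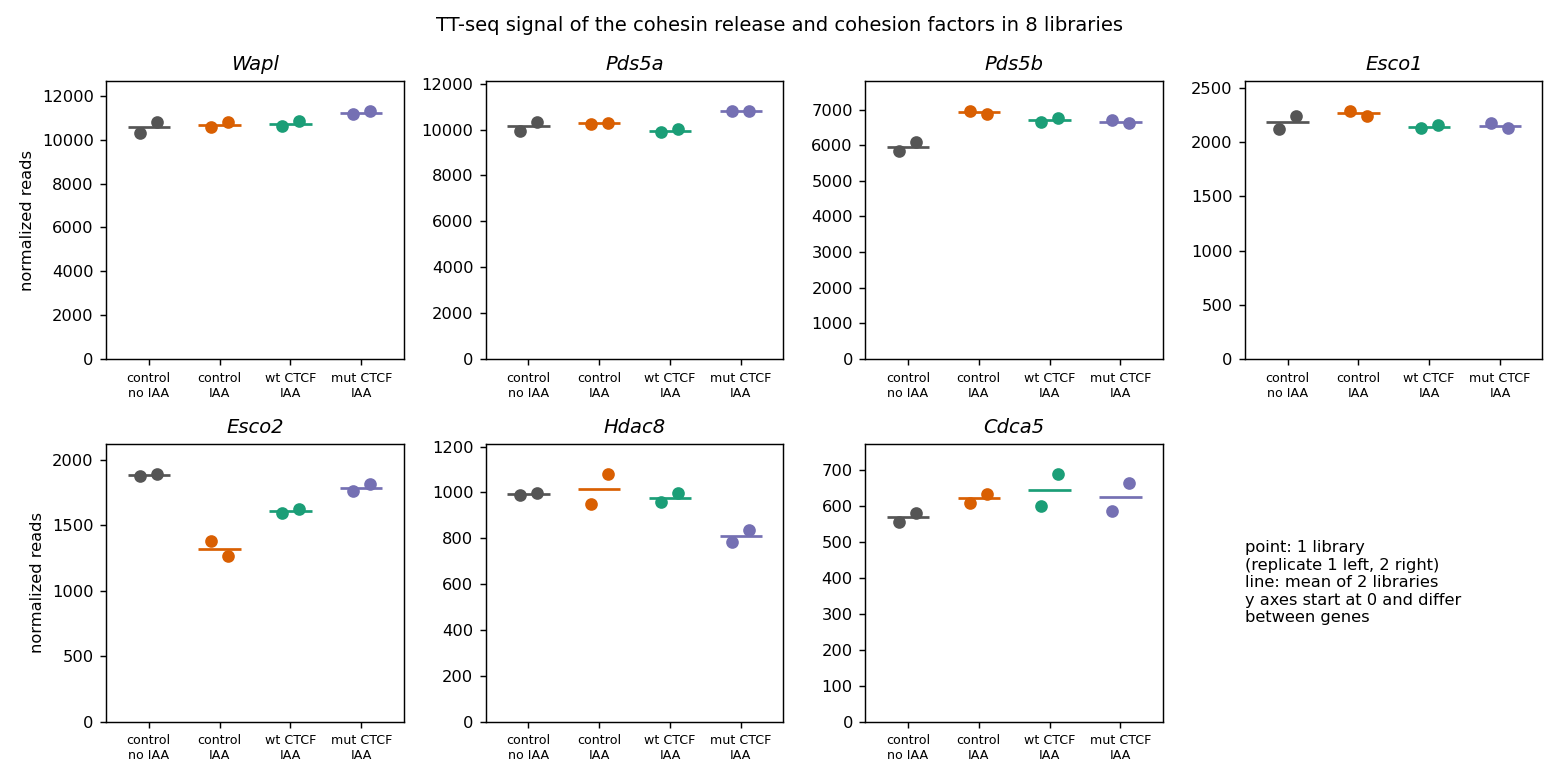
Normalized reads (y axis, from 0, a scale of its own for each gene) of the 7 genes in the 8 libraries, by group on the x axis. Points are libraries and lines are means of 2 libraries. Esco2 is lowest in the control line with IAA (1378 and 1268) and Hdac8 is lowest with mutated CTCF (785 and 837).

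The next comparisons ask how the genes differ when wild-type or mutated CTCF is overexpressed during IAA, each against the control line with IAA. Both share the control libraries with the IAA effect above, so opposite signs in the 2 comparisons are not independent of each other. With wild-type CTCF, Esco2 alone of the 7 passed on the authors' scale (1 of 7, against 31.6% of all tested genes). With mutated CTCF, Esco2 was higher and Hdac8 lower (2 of 7, against 34.3%). For wild-type CTCF the 7 genes had a median log2 fold change of -0.044, beside 0.057 over all tested genes, and for mutated CTCF 0.0060, beside 0.055.

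Esco2 had 1595 and 1627 normalized reads with wild-type CTCF, above both control libraries with IAA and below both untreated ones. Its log2 fold change over the control with IAA was 0.28 (SE 0.049, 95% interval 0.19 to 0.38, adjusted p = 1.9e-05). With mutated CTCF it had 1763 and 1815 normalized reads, again between those of the 2 control groups, and the log2 fold change was 0.44 (SE 0.049, 95% interval 0.34 to 0.54, adjusted p = 3.2e-09). Of the listed S phase genes, 11 of 14 were higher with wild-type CTCF (list median 0.18) and 8 of 14 with mutated CTCF (list median 0.15), beside 31.6% and 34.3% of all tested genes called in either direction. After median-of-ratios rescaling these were 8 higher and 1 lower (Slbp) for wild-type and 7 higher for mutated CTCF. Their part in the Esco2 values was not tested. The direction of Esco2 held in each alternative run for both comparisons.

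Hdac8 had 957 and 996 normalized reads with wild-type CTCF, inside the range of the control with IAA. With mutated CTCF it had 785 and 837, lower than in each of the other 6 libraries. Its mean was -20.2% relative to the control with IAA, and the log2 fold change was -0.32 (SE 0.062, 95% interval -0.45 to -0.20, adjusted p = 6.1e-05). Without the second control library with IAA the value was -0.23 and still passed. Gm14858 overlaps Hdac8 on the other strand and the counting strand is not given, and the share of its reads in these values was not tested.

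Pds5b had 6638 and 6774 normalized reads with wild-type and 6707 and 6613 with mutated CTCF. All 4 of these libraries lay below both control libraries with IAA (6965 and 6881), but the log2 fold changes of -0.046 (adjusted p = 0.32) and -0.056 (adjusted p = 0.21) did not pass. The call depends on the scale of the libraries. After median-of-ratios rescaling, which moves the median change of all genes from 0.057 to 0.0010 for wild-type CTCF, Pds5b passed as lower in both lines (-0.10 for wild-type, -0.11 for mutated CTCF). Esco1 did so as well under that scaling, at -0.14 and -0.12, and Pds5a only with wild-type CTCF, at -0.10. On the authors' scale Esco1 stood at 2125 and 2155 with wild-type and 2177 and 2126.5 with mutated CTCF, log2 fold changes of -0.081 and -0.073 that did not pass.

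Wapl had 10605 and 10850 normalized reads with wild-type CTCF and 11153 and 11314 with mutated CTCF. Its log2 fold changes over the control with IAA were 0.0061 (95% interval -0.056 to 0.068) and 0.073 (95% interval 0.010 to 0.13, adjusted p = 0.063). Pds5a, at 9878 and 10031 with wild-type and 10793 and 10815 with mutated CTCF, had -0.044 (adjusted p = 0.28) and 0.074 (adjusted p = 0.054). With the replicate number as a block (replicate block), and also with only the 2 groups fitted, Wapl and Pds5a passed as higher with mutated CTCF. Each setting takes the members called from 2 to 4. After median-of-ratios rescaling the same values were 0.021 for Wapl (adjusted p = 0.59) and 0.023 for Pds5a (adjusted p = 0.57). Cdca5 was at 601 and 690.0 with wild-type and 586 and 663 with mutated CTCF. Both pairs of Cdca5 libraries enclosed the control libraries with IAA (log2 fold changes 0.052 and 0.0060), and these 2 pairs were the widest of that gene, with SDs of 9.80% and 8.74% of the mean.

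**Figure D2:**
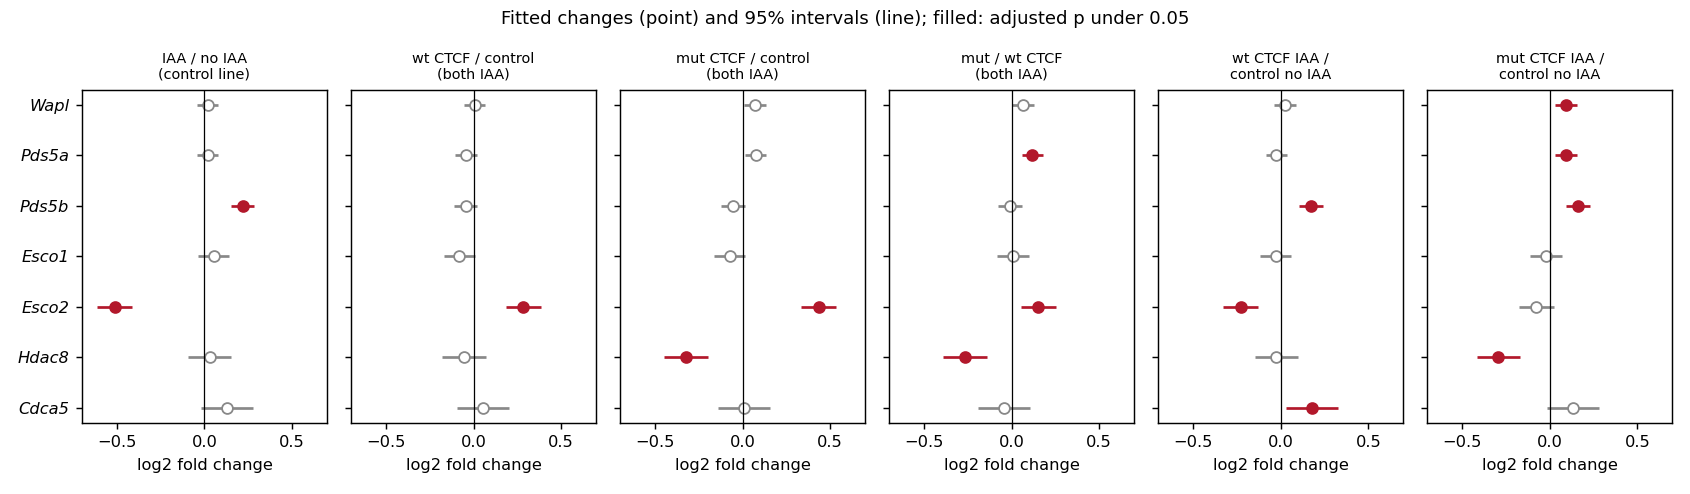
Log2 fold changes (x axis, log2(value + 1) scale) of the 7 genes in 6 comparisons, 1 panel each. Points are fitted values and lines 95% intervals. The 15 filled points have an adjusted p under 0.05, among them Esco2 at -0.51 and Pds5b at 0.22 in the first panel and Hdac8 at -0.27, Esco2 at 0.15 and Pds5a at 0.12 in the fourth.

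The direct comparison of the 2 overexpressing lines asks whether the 2 forms differ. No control library enters its fold changes, but all 8 libraries enter the spread behind its errors and p-values. Of the 7 genes, 3 passed, against 34.7% of all tested genes. Hdac8 was lower with mutated CTCF and Esco2 and Pds5a were higher. Hdac8 had the largest difference, -0.27 on the log2 scale (SE 0.062, 95% interval -0.39 to -0.14, adjusted p = 6.6e-04), a change of its mean of -17.0%. Esco2 differed by 0.15 (SE 0.049, 95% interval 0.051 to 0.25, adjusted p = 0.015), but did not pass without the first wild-type library (0.14) or the second mutated library (0.13). Pds5a differed by 0.12 (SE 0.030, 95% interval 0.057 to 0.18, adjusted p = 0.0021). For these 3 genes the libraries of the 2 lines did not overlap.

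Wapl was 0.067 higher with mutated CTCF on the log2 scale (95% interval 0.0044 to 0.13, adjusted p = 0.090), with no overlap of the libraries. With the replicate block it passed, as it did after both rescalings, which takes the count from 3 to 4. The remaining differences were -0.0100 for Pds5b (95% interval -0.078 to 0.058), 0.0080 for Esco1 (95% interval -0.082 to 0.098) and -0.046 for Cdca5 (95% interval -0.19 to 0.10). A limma fit with no mean-variance trend, in which all genes share 1 prior variance, called 0 of the 7 genes here and 3263 genes in all, against 5489. In that fit 3 of the 7 had an unadjusted p under 0.05. The adjusted p was 0.062 for Hdac8, 0.11 for Pds5a and 0.12 for Esco2. With edgeR, 4 of the 7 genes and 6094 of all 15818 tested genes were called.

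The lines with CTCF overexpressed were also set against the untreated control, to show how their values stood beside its level. With wild-type CTCF, 3 of 7 genes passed (43.2% of all tested genes). Esco2 was lower (-14.6%, log2 fold change -0.23, SE 0.049, adjusted p = 2.4e-04), Pds5b was 12.6% higher (0.17, SE 0.034, adjusted p = 6.4e-05) and Cdca5 was 13.6% higher (0.18, SE 0.073, adjusted p = 0.044). The Cdca5 call was lost after both rescalings, with edgeR, with no trend, and without the second wild-type library (0.081) or either untreated library. The 43.2% holds for the main fit. Scaling to equal library totals moved the median log2 fold change of all tested genes from 0.053 to -0.028. With equal totals Pds5b was the 1 gene that passed as higher, at 0.089, and 4 passed as lower: Esco2, Esco1, Pds5a (-0.11) and Wapl (-0.058). Pds5a also passed as lower after median-of-ratios rescaling (-0.080). With mutated CTCF, 4 of 7 passed (37.8% of all tested genes). Hdac8 was lower (-0.29, SE 0.062, adjusted p = 1.8e-04) and Pds5b higher (0.16, SE 0.034, adjusted p = 1.6e-04). Pds5a (0.092, SE 0.030, adjusted p = 0.014) and Wapl (0.090, SE 0.031, adjusted p = 0.018) were also higher, by 6.59% and 6.43%, but neither passed after either rescaling, with edgeR, with no trend, without the first untreated library or without either mutated library. Pds5b was at 0.078 with equal totals, where it passed, and had an adjusted p of 0.056 with no trend. Cdca5 (0.13, adjusted p = 0.15) passed without the first mutated library (0.22, adjusted p = 0.041).

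Against the untreated control, Esco2 with mutated CTCF had a log2 fold change of -0.076 (95% interval -0.18 to 0.023, adjusted p = 0.23). Both mutated libraries (1763 and 1815) were below both untreated ones (1876 and 1896.5). It passed as lower after median-of-ratios rescaling (-0.13) and with equal totals (-0.16). Esco1 had log2 fold changes of -0.029 with wild-type and -0.021 with mutated CTCF against the untreated control, with 95% intervals of -0.12 to 0.061 and -0.11 to 0.069. With equal totals Esco1 passed as lower in both, at -0.11 (adjusted p = 0.017) and -0.10 (adjusted p = 0.030). Libraries of the 2 groups did not overlap at 3, 4, 6, 4, 3 and 6 of the 7 genes in the 6 comparisons in the order given here, against 68.2%, 64.4%, 65.1%, 65.5%, 71.5% and 67.9% of all tested genes. The share of all tested genes with at least the absolute log2 fold change of a called gene was also taken. Over the control with IAA it was 31.1% for Esco2 with wild-type CTCF, and 17.1% for Esco2 and 26.7% for Hdac8 with mutated CTCF. Against untreated it was 48.8% (Esco2), 57.4% (Cdca5) and 59.1% (Pds5b) with wild-type CTCF. With mutated CTCF it was 32.7% (Hdac8), 56.8% (Pds5b), 74.0% (Pds5a) and 74.5% (Wapl).

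**Figure D3:**
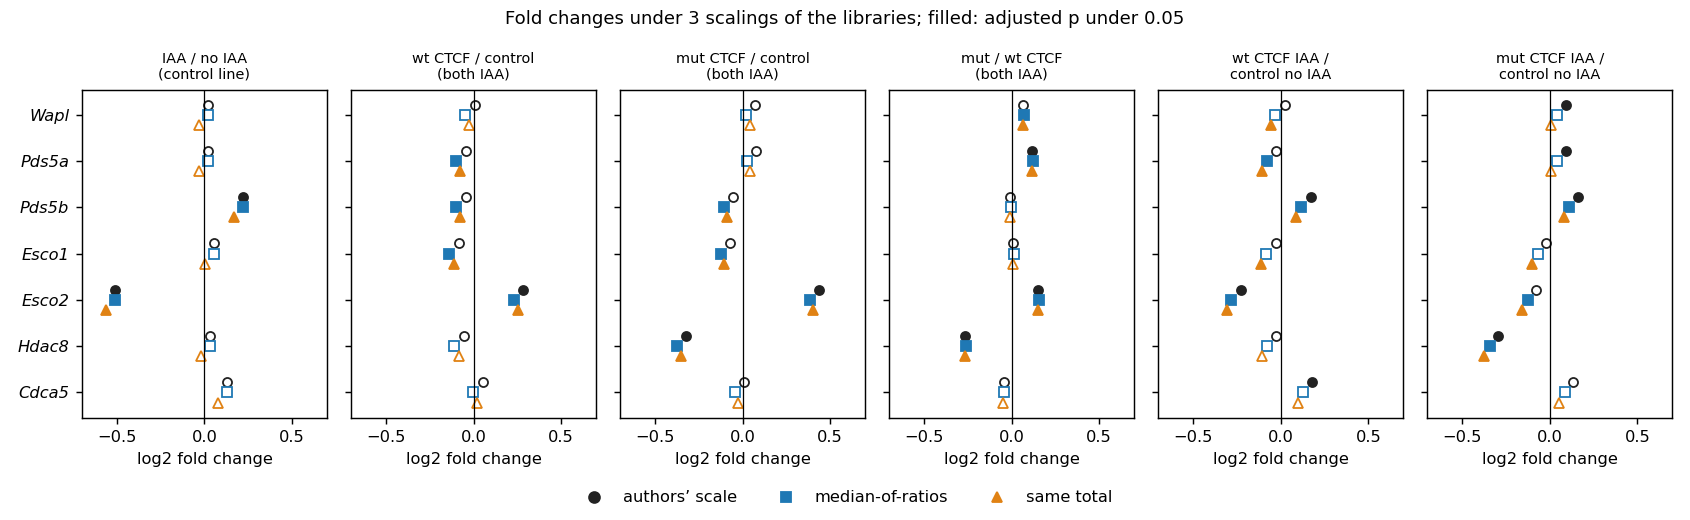
Log2 fold changes (x axis) of the 7 genes in 6 comparisons on the authors' scale (circles), after median-of-ratios rescaling (squares) and with equal library totals (triangles). Filled symbols have an adjusted p under 0.05. Esco2 with IAA is filled on each scale, and Wapl and Pds5a against the untreated control (last panel) only on the authors' scale.

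The orders of the 4 groups given here are those on the authors' scale in the limma fit, and several steps pass or fail under other settings, as given above. For Esco2 the order from high to low was untreated control (1886 ± 15 normalized reads, SD, n = 2), mutated CTCF (1789 ± 37), wild-type CTCF (1611 ± 23) and control with IAA (1323 ± 78), and there only the first 2 neighbours did not differ past the threshold, which they did after both rescalings. The highest group mean was 1.43 times the lowest, the widest span of the 7 genes. Pds5b ran from the control with IAA (6923 ± 59) through wild-type CTCF (6706 ± 96) and mutated CTCF (6660 ± 66) to the untreated control (5956 ± 188), and on that scale only the last step passed, while the first also did after both rescalings. For Hdac8 only the last step passed as well, from wild-type CTCF (977 ± 27) to mutated CTCF (811 ± 37), while the control with IAA (1016 ± 94) and the untreated control (993.5 ± 4.3) stood above.

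For Wapl, Pds5a, Cdca5 and Esco1 no neighbouring groups differed past the threshold on the authors' scale in the main limma fit over all 8 libraries. The step from mutated to wild-type CTCF passed for Wapl after both rescalings and with the replicate block. That from mutated CTCF to the control with IAA passed for Pds5a with the block and with only the 2 groups fitted. On the authors' scale mutated CTCF was at the top for Wapl (11234 ± 114) and Pds5a (10804 ± 16), and the lowest groups were the untreated control for Wapl (10555 ± 349) and wild-type CTCF for Pds5a (9954 ± 108). With equal totals the untreated control was not the lowest for Wapl, since wild-type CTCF passed as lower than it (-0.058, adjusted p = 0.040). Cdca5 was highest with wild-type CTCF (645 ± 63) and lowest in the untreated control (568 ± 17). Esco1 spanned from 2264 ± 34 in the control with IAA to 2140 ± 21 with wild-type CTCF, and passed in none of the 6 comparisons on the authors' scale.

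Over the 8 libraries, which fall into 4 groups and share their scaling, the log2 values of Wapl and Pds5a had a Pearson r of 0.86. Those of Pds5b and Esco2 had an r of -0.74 and those of Pds5a and Hdac8 -0.73, as descriptions of these libraries. Among 9244 genes that vary between groups, the 2 with the highest r to each called gene were taken. For Esco2 these were Cisd1 (r = 0.991) and Trnt1 (0.9905), and Cisd1 went from 680.0 normalized reads untreated to 469 in the control with IAA, 594 with wild-type and 648 with mutated CTCF. For Pds5b they were Gm281 (0.988) and Casr (0.986), for Hdac8 Smyd4 (0.978) and Zscan29 (0.970), and for Cdca5 Ubqln2 (0.985) and Lamtor4 (0.975). For Wapl they were Chmp4c (0.970) and Fnip2 (0.961), and for Pds5a Tomm20 (0.984) and Dcaf8 (0.980). Of these genes 253 had an r over 0.9 with Esco2 and 333 with Pds5b.

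The 7 genes lie on 5 chromosomes (GENCODE M21 on GRCm38, the assembly that the submitters' processing notes name as mm10), and all are protein-coding. Wapl (ENSMUSG00000041408.18) spans 34673928 to 34747983 on chromosome 14 and Esco2 (ENSMUSG00000022034.10) spans 65819038 to 65833994 on the same chromosome. Pds5a (ENSMUSG00000029202.12) spans 65605721 to 65698273 and Pds5b (ENSMUSG00000034021.15) 150673739 to 150810690 on chromosome 5. Esco1 (ENSMUSG00000024293.16) spans 10566507 to 10610352 on chromosome 18, Cdca5 (ENSMUSG00000024791.10) 6084983 to 6091777 on chromosome 19 and Hdac8 (ENSMUSG00000067567.12) 102284639 to 102505359 on chromosome X. Another gene with values overlaps 2 of them on the opposite strand: Gm42727 lies inside Pds5a, at 7.15 to 13.8 normalized reads per library, and Gm14858 overlaps Hdac8, at 76.1 to 167. The libraries were strand-specific, but the strand setting of the counting is not given in the sources used here, so some reads of Hdac8 may belong to Gm14858. Levels are not compared between genes, since the counted length of each gene is not given.

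The nearest gene with values on each side of the 7 genes was looked at after the member values had been seen. Of these 14 neighbours, 13 were tested and 3 passed with IAA (23.1%, beside 37.7% of all tested genes). Neither neighbour of Esco2 passed: Pbk, 1216 bases away, had a log2 fold change of 0.10 (adjusted p = 0.37), and Ccdc25, 3308 bases away on the promoter side, -0.099 (adjusted p = 0.14). Neither neighbour of Pds5b passed either, with N4bp2l2 at -0.038 and Gm36447 at 0.30 (SE 0.30). The 3 that passed with IAA lay beside genes that did not. Ube2k next to Pds5a rose by 0.26 (adjusted p = 2.9e-08), and the 2 neighbours of Esco1 moved in opposite directions, Greb1l to 0.71 (adjusted p = 3.5e-07) and Snrpd1 to -0.51 (adjusted p = 5.5e-12). Between the CTCF lines, some neighbours passed in the direction of a called gene. Rps4x beside Hdac8 was lower with mutated CTCF (-0.22, adjusted p = 0.0037) and N4bp2os beside Pds5a higher (0.44, adjusted p = 0.040). Greb1l beside Esco1 and Gm550 beside Cdca5 passed there, where neither member did. With mutated CTCF over the control with IAA, Ccdc25 was higher (0.22, adjusted p = 0.0010), as was Esco2. N4bp2l2, Greb1l and Snrpd1 passed there beside genes that did not.

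The other genes of the cohesin cycle were followed as lists. Of the 7 genes for the ring and its loader, 4 rose with IAA and the other 3 did not pass (list median 0.18), beside 37.7% of all tested genes called. The highest was Stag1, a ring subunit, whose mean went from 29386 ± 829 to 46220 ± 583 (log2 fold change of 0.65 with an SE of 0.025, adjusted p = 9.4e-24). The lowest of those that passed was Smc1a, a core ring subunit, at 0.18 (SE 0.047, adjusted p = 0.0022). With equal library totals 3 passed as higher and Nipbl, the loader, as lower. Between the CTCF lines, 3 of the 7 were higher and 1 lower with mutated CTCF, from Smc3 at 0.14 (adjusted p = 0.0016) to Stag1 at -0.083 (adjusted p = 0.0076), with a list median of -0.011 and 34.7% of all tested genes called.

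Of the factors that support cohesion at replication forks, Dscc1, a subunit of the clamp loader that carries CTF18, was the only one of 7 tested that passed with IAA (0.22, SE 0.091, adjusted p = 0.049), beside 37.7% of all tested genes. With equal totals Dscc1 did not pass and Wdhd1 passed as lower. Between the CTCF lines, limma called 0 of the 7 at an adjusted p under 0.05, with 0 at an unadjusted p under 0.05 and 0 called by edgeR, beside 34.7% of all tested genes called by limma. The list medians were -0.021 and 0.034. Of the 8 mitotic genes that protect or cleave cohesin, 3 fell with IAA and 5 did not pass, a share near the 37.7% of all tested genes. They ran from Sgo1, the shugoshin that shields centromeric cohesin, at -0.25 (SE 0.050, adjusted p = 7.9e-05) to Cdk1 at -0.14 (adjusted p = 0.0046). Between the CTCF lines, 3 of the 8 were higher with mutated CTCF, a share near the 34.7% of all tested genes, from Pttg1, the separase inhibitor securin, at 0.26 (adjusted p = 0.013) to Cdk1 at 0.16 (adjusted p = 0.0019).

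Of the 3 meiotic cohesin genes tested, 1 passed with IAA and 2 between the CTCF lines, beside 37.7% and 34.7% of all tested genes. Smc1b fell with IAA (-0.41, SE 0.056, adjusted p = 1.7e-07), and Stag3 did not pass on the authors' scale but passed as lower after both rescalings. Both were higher with mutated than with wild-type CTCF, Stag3 at 0.42 (adjusted p = 1.0e-07) and Smc1b at 0.29 (adjusted p = 1.0e-04), while Rec8 was at -0.31 and did not pass (adjusted p = 0.27). In the cell cycle lists, the S phase genes that fell with IAA ranged from Gins2, a replication helicase subunit, at -0.57 (adjusted p = 4.3e-05) to Pcna, the sliding clamp, at -0.13 (adjusted p = 0.023). Of 12 G2 and M genes, 3 fell and 1 rose with IAA, beside 37.7% of all tested genes. They ran from Cenpf at -0.29 (adjusted p = 1.8e-08) to Tpx2 at 0.099 (adjusted p = 0.037). With equal totals 5 passed as lower, Aurka and Cenpe among them, and Tpx2 did not pass. Between the CTCF lines, 2 of 14 S phase genes were higher and 4 lower, beside 34.7% of all tested genes called, from Slbp at 0.17 (adjusted p = 0.0050) to Ccne2 at -0.28 (adjusted p = 4.1e-04). Of the 12 G2 and M genes 4 were higher, from Ccnb2 at 0.30 (adjusted p = 1.1e-04) to Bub1b at 0.11 (adjusted p = 0.027), and 6 were higher under both rescalings, with Kif11 and Ccnb1 added. The count of 4 stands beside the 34.7% of all tested genes called between these lines on the authors' scale. That share does not apply to the count of 6 under the rescalings.

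**Figure D4:**
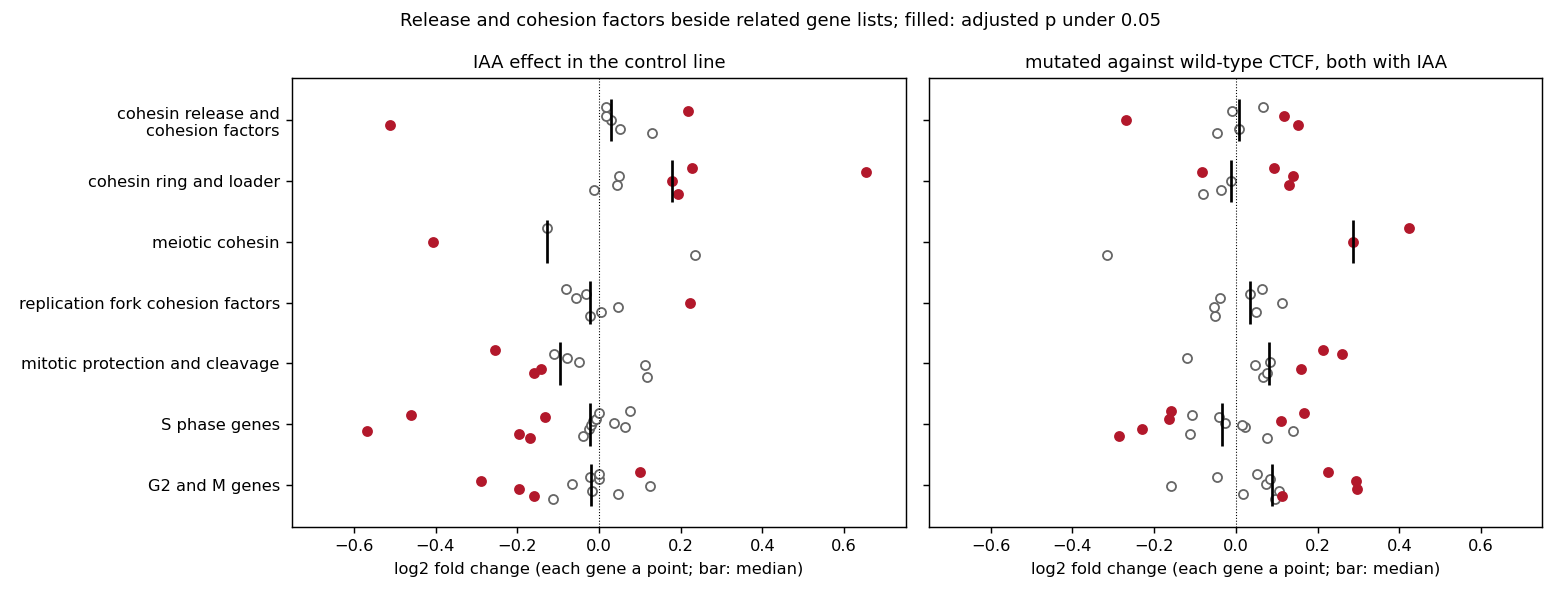
Log2 fold changes (x axis) of single genes in the 7 release and cohesion factors and 6 related lists (y axis), with IAA in the control line (left) and between mutated and wild-type CTCF (right). Points are genes, filled where the adjusted p is under 0.05, and bars are list medians. Esco2 is the filled point at -0.51 among the release and cohesion factors on the left, and Stag1 the one at 0.65 in the row of the ring and loader.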

How the data were processed

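The authors deposited 1 table of gene signal values for 8 libraries: read counts per gene divided by 1 size factor per library, called normalized reads here. The submitters' processing notes name Trim Galore, STAR, featureCounts, DESeq2 and mm10, with settings, annotation and strand not given in the sources used here. In every library 100% of the values divided evenly by the worth of 1 read (tolerance 0.001 reads), and whole reads were recovered that way. 1 read was worth 0.836 to 1.19 normalized reads. The table had 0 columns outside the series.

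The main test was limma 3.58.1 (R 4.3.3) on log2(value + 1), with 1 coefficient per group over all 8 libraries, a mean-variance trend and Benjamini-Hochberg adjustment over 15818 genes with a mean of at least 10, at a threshold of 0.05. It was tested on simulated data in which few genes changed and no library scale was shifted. That test therefore does not cover the large shares of genes called here or the dependence on scaling. edgeR 4.0.16 on the recovered reads was an alternative and called 6517 genes with IAA. Members, lists and comparisons were chosen with earlier results of these data known. The rule for other named genes took, in each list, the highest and lowest called log2 fold change with IAA and between mutated and wild-type CTCF, and the 2 genes most correlated with each called member. Nipbl, Wdhd1, Rec8, Stag3 with IAA, Aurka, Cenpe, Kif11, Ccnb1, Slbp against the control, Tfap2c, the overlapping genes and the neighbouring genes fall outside that rule and were named after their values were seen. Rad21l, Chtf8 and Cdt1 of the lists were not tested.

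Alternatives were a pseudocount of 0.5 or 10, a filter at a mean of 50 or none, library scaling by median-of-ratios factors or to equal totals, only the 2 groups compared, no trend, a replicate block, edgeR and leaving out each library. Deviations of same-numbered libraries from their group means had a mean r of 0.0037 across genes. That r leaves out any shift shared by all genes, and the summed normalized reads were higher in the second library of each group. It therefore cannot decide whether the numbers mark pairs. The labels do not say what a number marks, so the main fit used no pairs and the replicate block was an alternative.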

Additional observations from a re-analysis of the deposited data

Results flagged for a closer look

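Esco2, Hdac8 and Pds5a were flagged because the lines with mutated and wild-type CTCF differed in a test of the difference itself (limma, adjusted over all 15818 genes). Esco2 differed by 0.15 on the log2 scale (adjusted p = 0.015), Pds5a by 0.12 (adjusted p = 0.0021) and Hdac8 by -0.27 (adjusted p = 6.6e-04). Both mutated libraries lay on 1 side of both wild-type libraries for each gene. Over all tested genes 34.7% passed this test. An absolute log2 fold change at least as large was seen at 56.6% of all tested genes for Esco2, 64.7% for Pds5a and 36.1% for Hdac8. By size these differences were therefore not rare among all genes. Over the alternatives the adjusted p ran from 0.0030 to 0.12 for Esco2, from 1.7e-04 to 0.11 for Pds5a and from 1.9e-04 to 0.062 for Hdac8.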

How the results depend on the processing

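Of the 42 member values 15 passed, and under the alternatives these gave 210 values, of which 183 kept direction and call, 27 lost the call and 0 changed sign. With no mean-variance trend the genes called fell to 3946 with IAA, 2379 and 3228 for wild-type and mutated CTCF against the control with IAA, 3263 between the CTCF lines and 3869 for mutated CTCF against the untreated control, and members called to 0 in the fourth and 1 in the last. Members called rose from 1 to 4 for wild-type CTCF against the IAA control under median-of-ratios, equal totals and edgeR. Genes called there were 5061, 5200 and 4988, beside 4991 in the main fit (31.6% of all tested genes). For mutated CTCF, members called rose from 2 to 4 under those settings, only the 2 groups and the replicate block. There 5388, 5596, 5233, 5520 and 5920 genes were called, beside 5433 in the main fit (34.3%). Against untreated, members called for wild-type CTCF rose from 3 to 5 with equal totals. The replicate block called 6423, 5532, 5920, 5981, 7237 and 6397 genes in the 6 comparisons in report order. The main fit called 5967, 4991, 5433, 5489, 6828 and 5975. Libraries with the same number correlated in their deviations at a mean r of 0.0037, which leaves out shifts shared by all genes. The share of higher genes among those called went from 51.3% to 38.5% with IAA (equal totals), from 68.3% to 50.3% for wild-type and 63.9% to 50.2% for mutated CTCF (median-of-ratios), and against untreated from 64.0% to 51.8% and 45.5% for wild-type and from 63.6% to 52.1% and 43.1% for mutated CTCF (median-of-ratios, equal totals). Sign changes were seen for values that had not passed. With equal totals Wapl, Pds5a and Hdac8 were -0.034, -0.033 and -0.023 with IAA. Under median-of-ratios, equal totals and edgeR, Wapl was -0.050, -0.025 and -0.052 for wild-type CTCF against the control and -0.030, -0.058 (adjusted p = 0.040) and -0.038 against untreated, and Cdca5 was -0.045, -0.026 and -0.041 for mutated CTCF against the control. Cdca5 was -0.0042 (median-of-ratios) and -0.0093 (edgeR) for wild-type CTCF against the control.

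Leaving out 1 library at a time gave 4284 to 4773 genes and 2 members called with IAA, 3274 to 4622 genes and 1 member called for wild-type CTCF against the control, 3963 to 4426 genes and 2 members called for mutated CTCF against the control, 3969 to 4875 genes and 2 to 3 members called between the CTCF lines, 4996 to 6197 genes and 2 to 3 members called for wild-type CTCF against untreated, 4234 to 5000 genes and 2 to 4 members called for mutated CTCF against untreated. The lowest gene count for wild-type CTCF against the control came without the second wild-type library, and the 2 members for mutated CTCF against untreated without the first untreated or the second mutated library. Values not passed that changed sign with IAA were Wapl from -0.016 to 0.051, Pds5a from -0.0088 to 0.045, Hdac8 from -0.066 to 0.12. Values not passed that changed sign for wild-type CTCF against the control were Wapl from -0.010 to 0.023, Hdac8 from -0.15 to 0.041, Cdca5 from -0.048 to 0.15. Values not passed that changed sign for mutated CTCF against the control were Cdca5 from -0.083 to 0.095. Values not passed that changed sign between the CTCF lines were Pds5b from -0.025 to 0.0046, Esco1 from -0.0091 to 0.025, Cdca5 from -0.15 to 0.054. Values not passed that changed sign for wild-type CTCF against untreated were Wapl from -0.010 to 0.057, Pds5a from -0.053 to 0.0011, Esco1 from -0.068 to 0.011, Hdac8 from -0.053 to 0.0036. Values not passed that changed sign for mutated CTCF against untreated were Esco1 from -0.060 to 0.019. The cause of these changes was not tested. Of the 7 genes Cdca5 had the fewest reads, from 511 per library.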
